A study of Mus musculus with 12 samples.

Results

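The 10 tubulin-modifying enzymes described here are the 5 glutamylase genes Ttll1, Ttll4, Ttll5, Ttll7 and Ttll11, the 2 deglutamylase genes Agtpbp1 and Agbl5, and the detyrosination genes Vash1, Vash2 and Svbp. They were chosen by gene symbol from the 24528 genes of a muscle RNA-seq table, with the KO to WT change of Ttll7 already known. All 10 are listed in the table, lay above its lowest value, and had at least 10 estimated reads in all 6 KO and all 6 WT libraries. The samples were bulk gastrocnemius, a calf muscle, of male mice aged 4 months. The 6 KO mice had the genotype Ank2f/f; HSA-Cre+, so their floxed Ank2 alleles were combined with a Cre driver of skeletal muscle fibres. The 6 WT mice were Ank2f/f littermates from the same cages, so they carried the floxed alleles without Cre. No group had Cre without floxed alleles, and effects of Cre and of Ank2 loss cannot be told apart. Ank2 encodes ankyrin-B, an adaptor between membrane proteins and the cytoskeleton that is also known to bind dystrophin and a dynactin subunit.

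Microtubules are built from alpha- and beta-tubulin, whose carboxy-terminal tails carry reversible marks. Enzymes of the tubulin tyrosine ligase-like (TTLL) family add side chains of glutamate to the tails, and cytosolic carboxypeptidases trim them. Vasohibins, which need the small partner protein SVBP, remove the last tyrosine of alpha-tubulin, and the ligase TTL puts it back. In striated muscle the microtubules form a lattice beneath the membrane and around nuclei, and the amount of detyrosinated tubulin is known to affect the stiffness of the fibre.

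The deposited values are on a log2 scale that compresses differences between genes with few reads, so each change is given on that scale and, where useful, as a percent of the WT mean after the scale was undone. Estimated depth was 13408653 to 18706313 reads in KO libraries and 12283841 to 16907227 reads in WT libraries. Ank2 itself stood at 33.1% ± 7.12 of the WT mean in KO muscle and at 100% ± 28.1 in WT muscle (SD, n = 6 each), and no KO library overlapped a WT library. The 10 fast-fibre markers were all above the filter, and their mean value was 16.95 to 17.46 in KO libraries and 17.28 to 17.46 in WT libraries. KO muscle and WT muscle differed in 757 of 12218 tested genes by limma, with a threshold of 0.05 on the Benjamini-Hochberg adjusted p, which is 6.20% of them. The values of the 6 KO and 6 WT libraries did not overlap in 2.47% of the tested genes, with KO higher in 1.27% and lower in 1.20%.

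Of the 10 enzymes, 2 passed that threshold and did not overlap between the groups. Ttll7 was lower and Ttll1 was higher in KO muscle, against 3.08% of all tested genes lower and 3.12% higher. The enzymes were chosen with this contrast in view, so their values are a description and nothing is read from the count. The median change was -0.09 over the 10 enzymes and -0.01 over all tested genes.

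**Figure D1:**
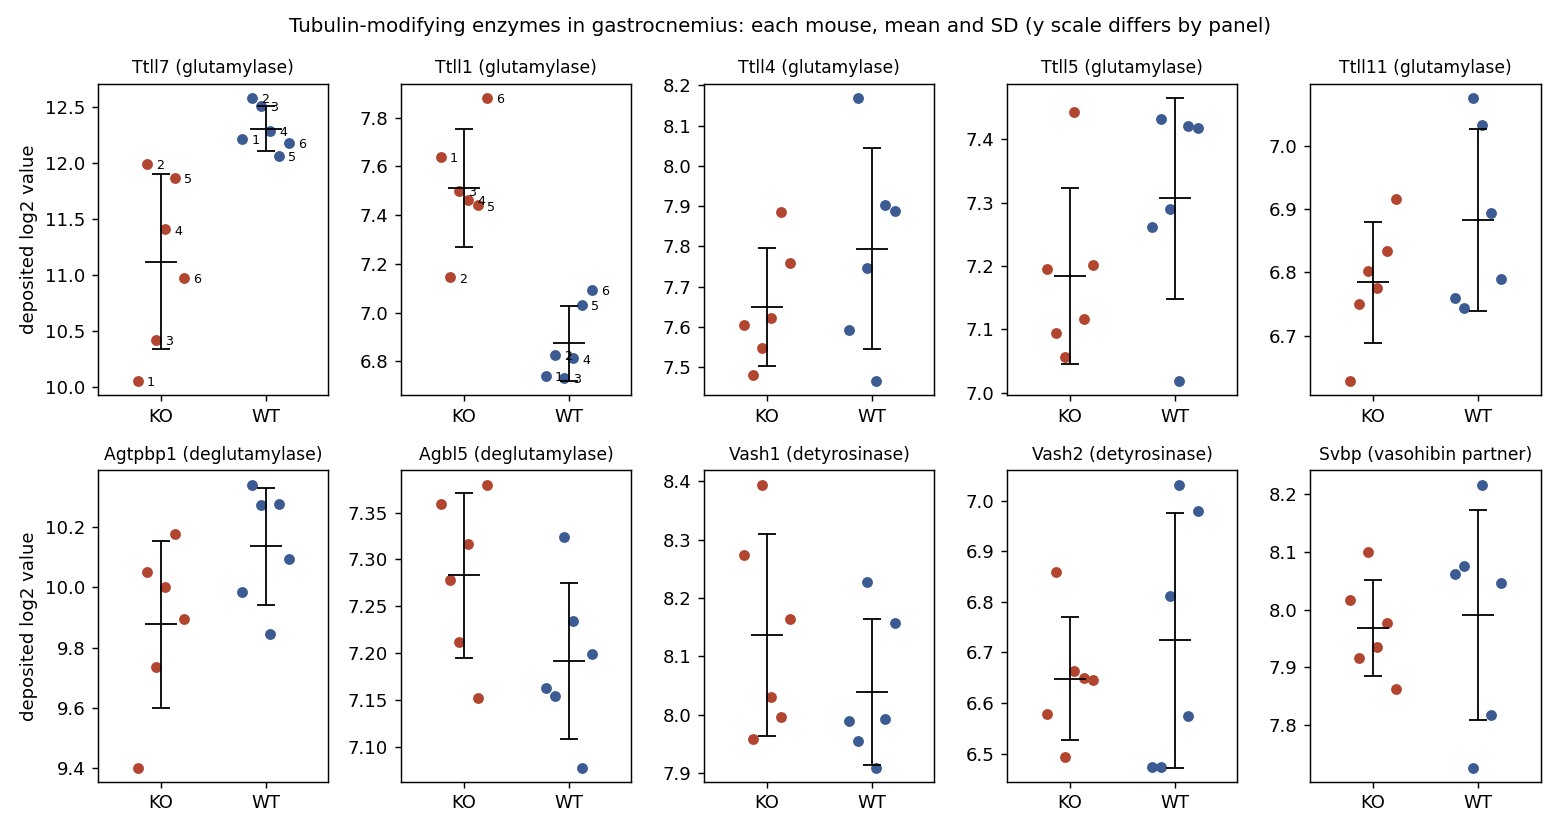
Deposited log2 value of each of the 10 enzymes in the 6 KO (red) and 6 WT (blue) libraries, with mean and SD as black bars; replicate numbers are printed for Ttll7 and Ttll1. For Ttll7 every KO point lies below the lowest WT point of 12.06, for Ttll1 every KO point lies above the highest WT point of 7.09, and the other 8 panels overlap.

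Ttll7 encodes a polyglutamylase that prefers beta-tubulin. Its deposited value was 10.05 at the lowest, 11.19 at the median and 11.99 at the highest in KO libraries, against 12.06, 12.25 and 12.58 in WT libraries. The KO libraries therefore lay wholly below the WT libraries, with KO 2 just under WT 5. The change was -1.19 (SE 0.31). On the linear scale, KO muscle had 47.9% ± 24.6 of the mean Ttll7 level of WT muscle, itself 100% ± 14.4 (SD, n = 6 each). The KO mice differed widely among themselves. KO 1 stood at 19.4% of the WT mean, KO 3 at 25.5%, KO 6 at 38.3%, KO 4 at 52.4%, KO 5 at 72.6% and KO 2 at 79.4%. WT mice ran from 83.4% to 120.4%. Ttll7 stayed below WT whichever library was left out, with a change between -1.36 and -0.97, but it passed the threshold without 3 of the 12 libraries only, which were KO 2, KO 4 and KO 5. It also missed under 2 of the 9 other settings, among them no filter on low values. Between 1158 and 3633 estimated reads stood behind each KO value, and between 3685 and 5953 behind each WT value.

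The promoter of Ttll7 is shown because this gene had the highest level of the glutamylases and the largest change among the 10 enzymes. Ttll7 lies on the plus strand of chromosome 3 from 146852367 to 146984009 (mm10, GENCODE release M21), 19.35 Mb from Ank2 on the same chromosome, and none of its exon bases is shared with another annotated gene. The 250 bases before its start (chr3:146852117-146852366, plus strand, GRCm38.p6, from RefSeq) are printed with the E-box motif CANNTG, the core bound by myogenic factors, in capitals.
Ttll7 promoter: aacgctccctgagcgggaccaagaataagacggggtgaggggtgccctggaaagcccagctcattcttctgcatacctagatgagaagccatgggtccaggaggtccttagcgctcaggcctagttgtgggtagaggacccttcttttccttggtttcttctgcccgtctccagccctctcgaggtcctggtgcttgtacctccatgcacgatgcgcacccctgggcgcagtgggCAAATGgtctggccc
On both strands this window holds 1 CANNTG, and 66.2% of 32851 RefSeq promoter windows of the same length hold at least 1. It holds no TATAAA, which 12.4% of the windows hold, and 9 CG pairs, against a median of 6. These are letter matches only, with no measure of binding.

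Ttll1 encodes the catalytic subunit of a multi-protein polyglutamylase that prefers alpha-tubulin. Its deposited value was 7.14 at the lowest, 7.48 at the median and 7.88 at the highest in KO libraries, against 6.73, 6.82 and 7.09 in WT libraries. All KO libraries lay above all WT libraries. The change was 0.64 (SE 0.11), and it passed the threshold without any 1 of the 12 libraries and under all 9 other settings. These refits reuse the libraries of the contrast known when the enzymes were chosen. They describe how stable the estimate is and add no independent support. On the linear scale, KO muscle had 242% ± 69.3 of the mean Ttll1 level of WT muscle, itself 100% ± 25.7 (SD, n = 6 each). The values rest on 53.9 to 168.9 estimated reads in KO libraries and 27.0 to 58.0 in WT libraries, so counting error is larger here than for Ttll7. KO 2, the library with the highest Ttll7 value among the KO mice, had their lowest Ttll1 value. Ttll1 is annotated on chromosome 15 (83483769 to 83510893, minus strand).

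The remaining glutamylases overlapped between the groups and did not pass the threshold. Ttll4, which starts short chains on tubulin and also acts on nucleosome assembly proteins, was 7.48, 7.61 and 7.88 in KO libraries and 7.47, 7.82 and 8.17 in WT libraries (lowest, median and highest). Its change was -0.14 (SE 0.11). Ttll5, an initiating enzyme that prefers alpha-tubulin, was 7.06, 7.16 and 7.44 in KO libraries and 7.02, 7.35 and 7.43 in WT libraries. Its change was -0.12 (SE 0.09). Ttll11, which lengthens chains, was 6.63, 6.79 and 6.92 in KO libraries and 6.74, 6.84 and 7.08 in WT libraries. Its change was -0.10 (SE 0.08), on 29.0 to 54.0 estimated reads. For each of these 3 genes, 5 of 6 KO libraries lay below the WT median. The same count held for Vash2 and Svbp, while for Agbl5 and Vash1 5 of 6 lay above it.

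Among the enzymes that remove glutamate, the largest estimate was that of Agtpbp1, whose product shortens long chains and whose loss causes Purkinje cell degeneration in mice. Agtpbp1 was 9.40, 9.95 and 10.18 in KO libraries and 9.85, 10.18 and 10.34 in WT libraries. All 6 KO libraries lay below the WT median, but 4 of them lay within the WT range, and the change of -0.26 (SE 0.12) did not pass the threshold. KO 1 was lowest for Agtpbp1, as it was for Ttll7. Agbl5, which removes the glutamate at the branch point, was 7.15, 7.30 and 7.38 in KO libraries and 7.08, 7.18 and 7.32 in WT libraries, a change of 0.09 (SE 0.07). Of the exon bases of Agbl5, 9.60% are shared with Ost4 on the other strand, and libraries without strand cannot separate such reads.

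The detyrosination genes overlapped between the groups. Vash1, a vasohibin first known as an endothelial inhibitor of vessel growth, was 7.96, 8.10 and 8.39 in KO libraries and 7.91, 7.99 and 8.23 in WT libraries, a change of 0.10 (SE 0.09). Vash2, the related vasohibin, was 6.49, 6.65 and 6.86 in KO libraries and 6.47, 6.69 and 7.03 in WT libraries, a change of -0.08 (SE 0.10). It rested on 16.9 to 53.9 estimated reads per library. Svbp, the partner of both, was 7.86, 7.96 and 8.10 in KO libraries and 7.73, 8.05 and 8.22 in WT libraries, a change of -0.02 (SE 0.08) that turned to 0.022 without WT 4. None of these 3 passed the threshold, which does not show that their levels were alike.

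**Figure D2:**
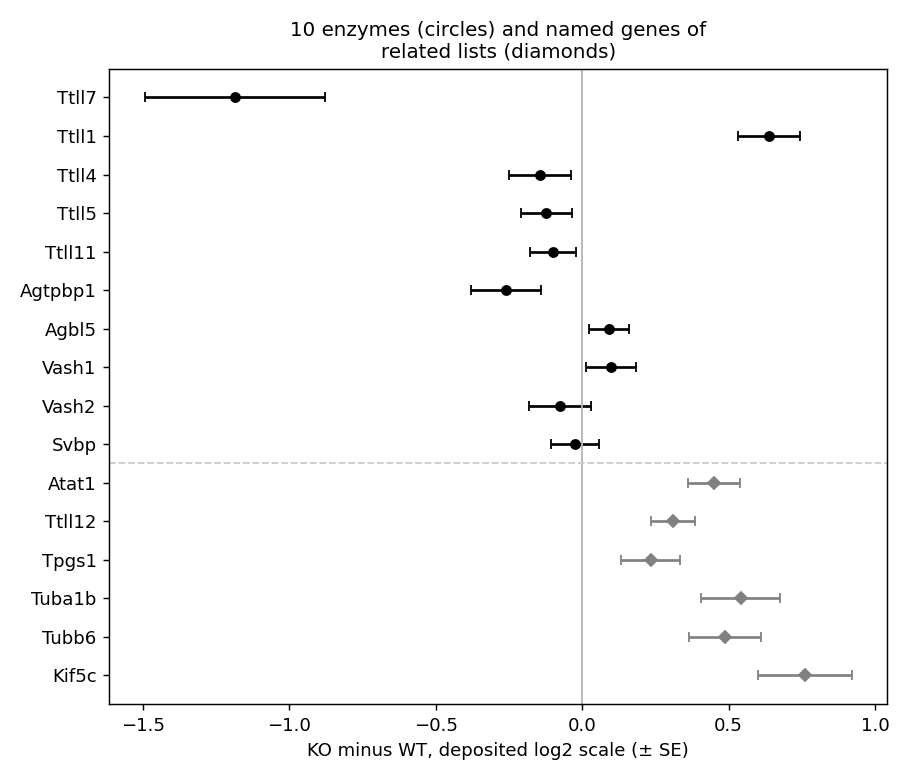
KO minus WT change with its SE on the deposited log2 scale, for the 10 enzymes (black circles, above the dashed line) and the named genes of related lists (grey diamonds, below it). Ttll7 at -1.19 and Ttll1 at 0.64 lie farthest from 0 among the enzymes, which were chosen with this contrast known.

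Per transcript length, Ttll7 stood far above the other glutamylases in both genotypes. With scaled reads divided by the median length of a gene's coding transcripts, its level was 549 ± 282 reads per kilobase in KO muscle and 1144 ± 165 in WT muscle (SD, n = 6 each). The next glutamylase in WT muscle was Ttll4 with 63.3 ± 17.0. In KO muscle Ttll4 had 53.4 ± 9.03, and Ttll1 was level with it at 52.8 ± 15.1. Ttll7 made up 74.9% ± 10.9 of the summed level of the 5 glutamylases in KO muscle and 89.1% ± 2.02 in WT muscle. Ttll1 made up 9.12% ± 5.05 of that sum in KO muscle and 1.75% ± 0.602 in WT muscle. The share of Ttll4 was 8.66% ± 3.34 in KO muscle and 4.95% ± 1.16 in WT muscle. With the longest transcript as the length, the Ttll7 share was 75.4% ± 11.5 in KO muscle and 91.3% ± 1.77 in WT muscle. By that length Ttll1 came next in both, with 14.5% ± 7.97 in KO muscle and 2.85% ± 0.988 in WT muscle. These shares restate the changes above on a scale of levels. In bulk tissue, fewer cells of a type and less RNA per cell cannot be told apart.

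In WT muscle the order by level was Agtpbp1, Ttll7, Svbp, Vash1, Ttll4, Ttll5, Agbl5, Ttll11, Ttll1 and Vash2. Neighbours whose WT libraries overlapped were Agtpbp1 and Ttll7, Vash1 and Ttll4, and each adjacent pair from Ttll5 to Ttll1. Ttll7 lay 4.77-fold above Svbp with no overlap, and Svbp 3.52-fold above Vash1. The order depends on the length used. By the longest transcript, Ttll4 moved to place 8 and Ttll1 to place 5 in WT muscle. For Agtpbp1, coding transcripts have a median length of 844 bases and a maximum of 8174. Its WT level was 1233 ± 176 per kilobase by the median and 127 ± 18.1 by the longest transcript, by which Ttll7 came first with 676 ± 97.7.

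**Figure D3:**
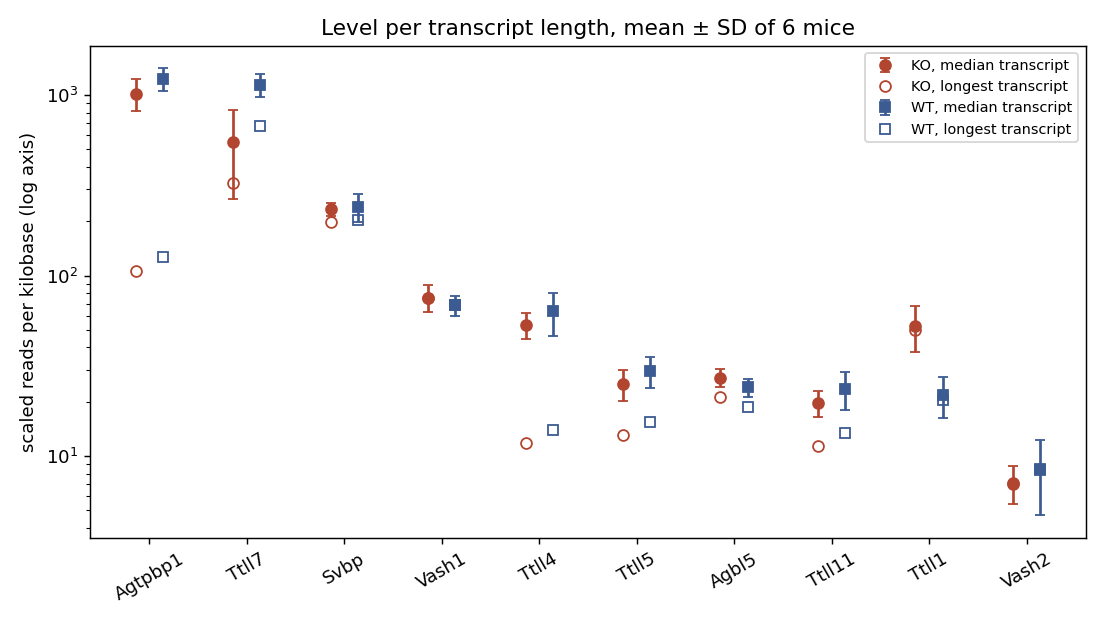
Scaled reads per kilobase of transcript (log axis) for each enzyme, in 6 KO (red circles) and 6 WT (blue squares) mice, with filled symbols for the mean and SD by median coding transcript length and open symbols for the mean by longest transcript. Ttll7 is above every other glutamylase by either length, while Agtpbp1 falls to 127 in WT muscle with the longest transcript.

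The genes that varied most like Ttll7 were sought in the deviation of each library from the mean of its own group, into which the difference between KO and WT does not enter. Over the 12 libraries, the highest Pearson correlations were those of Eps15, an endocytic adaptor gene (0.994), Psme4, a proteasome activator gene (0.984), Bmpr2, a BMP receptor gene (0.984), Fam120a, an RNA-binding protein gene (0.984), and Gid4, a ubiquitin ligase subunit gene (0.983). Their Spearman correlations were 1, 0.944, 0.965, 0.979 and 0.916. They were picked as the highest of 12217 genes, so no p is given. Within the 6 WT libraries alone the Pearson correlations were 0.941, 0.858, 0.816, 0.883 and 0.832. Among the other enzymes, the correlations with Ttll7 farthest from 0 were 0.799 for Agtpbp1, -0.703 for Vash1 and -0.573 for Ttll1. Ranked from the highest, these took places 941, 11523 and 10593 of the 12217 genes, so many other genes lay farther out. Agtpbp1 gave 0.939 within KO and 0.382 within WT, Vash1 gave -0.924 within KO and 0.146 within WT, and Ttll1 gave -0.598 within KO and -0.625 within WT. A correlation above 0.9 was shared by 284 of the 12217 genes, so this likeness is not limited to the few named. KO libraries hold most of the spread, with a Ttll7 range of 1.93 in KO and 0.52 in WT. Psme4 was lower in KO muscle, with a change of -0.77 (SE 0.17, limma adjusted p = 0.0232), but missed the threshold without any 1 of KO 3, KO 6, WT 2 and WT 3 (adjusted p up to 0.0583). The other 4 gave -0.32 to -0.48 with adjusted p from 0.0594 to 0.0936.

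**Figure D4:**
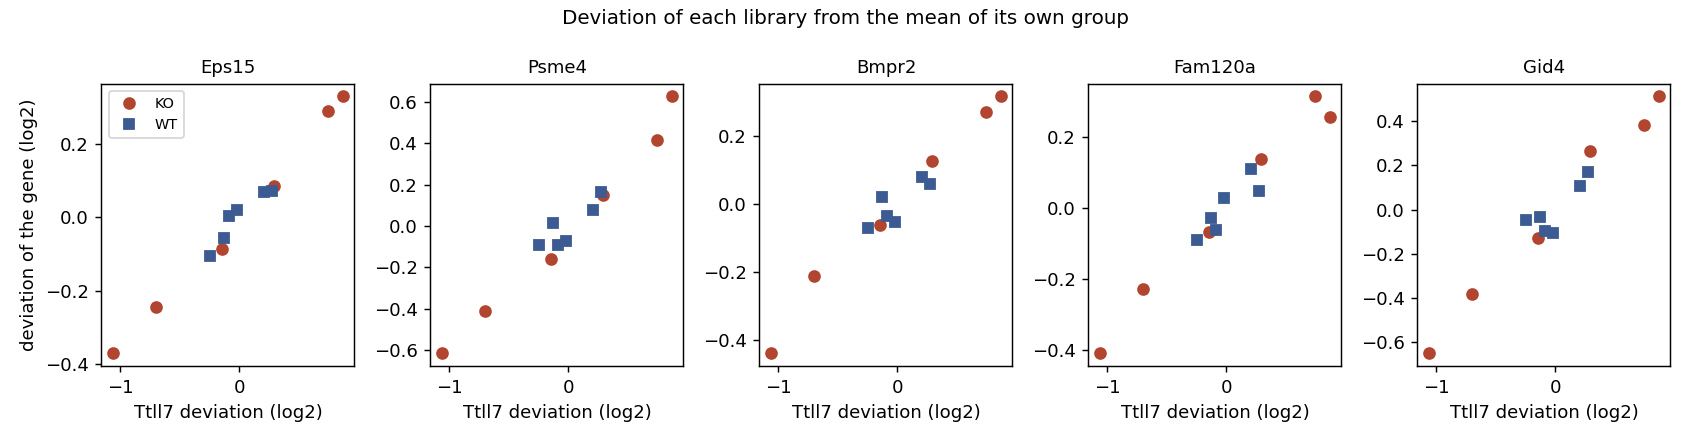
Deviation of each library from its group mean for Ttll7 (x axis) and for the 5 genes most like it (y axes), both in deposited log2 units, with KO libraries as red circles and WT libraries as blue squares. The points rise along a line in each panel, and the KO libraries reach farther out than the WT libraries.

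Dmd encodes dystrophin, which binds microtubules in muscle. It was 8.85, 9.46 and 10.19 in KO libraries and 10.42, 10.59 and 10.85 in WT libraries, a change of -1.18 (SE 0.19, limma adjusted p = 0.00669). The KO libraries had the same order for Dmd as for Ttll7, with KO 1 lowest, then KO 3, KO 6, KO 4, KO 5 and KO 2. The order for Ank2 was nearly the opposite, with KO 5 lowest at 7.54 and KO 1 highest at 8.03. Over the deviations of all 12 libraries, the Pearson correlation of Ank2 with Ttll7 was -0.406, place 9200 of 12217 from the highest. It was -0.825 over the 6 KO libraries and -0.102 over the 6 WT libraries, a description of few mice.

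Among 18 other tubulin-modifying enzymes, 8 could be tested, of which 2 were higher and none lower in KO muscle, against 3.12% higher and 3.08% lower over all tested genes. Atat1, the alpha-tubulin acetyltransferase gene, was 7.21, 7.49 and 7.66 in KO libraries and 6.80, 7.00 and 7.21 in WT libraries. The groups came close without overlapping, and the change was 0.45 (SE 0.09, limma adjusted p = 0.0121). Ttll12, a family member without an established glutamylase activity, was 7.95, 8.21 and 8.38 in KO libraries and 7.78, 7.86 and 8.01 in WT libraries. Its KO 2 value lay within the WT range, and the change was 0.31 (SE 0.08, limma adjusted p = 0.0277). Ttll12 lost its call without any 1 of KO 1, KO 6, WT 1, WT 2, WT 3 and WT 6 (adjusted p up to 0.0701). The counterparts of these marks, named after their values were seen, did not pass. They were the tyrosine ligase gene Ttl (-0.06, SE 0.10, limma adjusted p = 0.748) and the tubulin deacetylase genes Hdac6 (-0.01, SE 0.06, adjusted p = 0.91) and Sirt2 (-0.06, SE 0.07, adjusted p = 0.648). The median change of the 8 genes was 0.01. Of the others, 8 had too few reads and the symbols Matcap1 and Matcap2 matched no row.

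Of the 4 tested genes of the TTLL1 polyglutamylase complex, none passed by limma, against 6.20% of all tested genes. Over all 12218 tested genes, 3179 had an unadjusted limma p at or under 0.05, and of the 4 genes 1 did. That was Tpgs1, a subunit gene, at 8.74, 8.95 and 9.17 in KO libraries and 8.31, 8.79 and 8.87 in WT libraries, a change of 0.23 (SE 0.10, limma adjusted p = 0.158). With limma-voom the count was also 0.

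Of 15 tested tubulin genes, 2 were higher and none lower in KO muscle, with a median change of 0.08. Over all tested genes 3.12% were higher and 3.08% lower. Tuba1b, an alpha-tubulin gene, was 8.45, 8.93 and 9.22 in KO libraries and 8.18, 8.36 and 8.49 in WT libraries, and only KO 2 lay within the WT range. Its change was 0.54 (SE 0.13, limma adjusted p = 0.0324). Tubb6, a beta-tubulin gene known to be raised in dystrophic mouse muscle, was 8.40, 8.90 and 9.40 in KO libraries and 8.37, 8.44 and 8.52 in WT libraries, again with only KO 2 within the WT range. Its change was 0.49 (SE 0.12, limma adjusted p = 0.033). Without any 1 of KO 1, KO 3, KO 6, WT 2, WT 3, WT 5 and WT 6 neither gene passed, and Tubb6 also missed without WT 1 (adjusted p up to 0.0791 for Tuba1b and 0.0708 for Tubb6). With limma-voom Tuba1b missed too (adjusted p = 0.0505). Tubulin genes have near-identical copies, and how reads shared between copies were counted is not given in the sources used here.

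Of 38 tested genes of microtubule-associated, severing and motor proteins, 1 was higher and none lower, with a median change of -0.03. That is 2.63% of the list, against 6.20% called over all tested genes. Kif5c, a kinesin heavy chain gene best known from neurons, was 6.56, 7.20 and 7.78 in KO libraries and 6.13, 6.48 and 6.58 in WT libraries. Only KO 2 lay within the WT range. The change was 0.76 (SE 0.16, limma adjusted p = 0.0183), on as few as 6.00 estimated reads in a WT library. Without KO 2 this list had 5 calls, without KO 4 it had 3, and without KO 5 or WT 4 it had 2.

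Markers of other fibre and cell types were compared by the mean value of each list (exact two-sided permutation test over 924 assignments, adjusted over 11 lists). Means and p-values are over the tested markers of a list, and sums are over all its markers, tested or not. Slow-fibre markers, 9 of 9 tested, were 8.85 ± 1.34 in KO muscle and 10.81 ± 1.23 in WT muscle (SD, n = 6 each; exact permutation p = 0.0303, adjusted p = 0.0833). Their summed level ran from 1270 to 17740 scaled reads in KO libraries and from 6815 to 67709 in WT libraries. Markers of regenerating fibres, 5 of 6 tested, were 7.89 ± 0.36 in KO muscle and 7.31 ± 0.10 in WT muscle (exact permutation p = 0.013, adjusted p = 0.0556), with sums of 517 to 1117 in KO and 496 to 659 in WT. Smooth muscle and pericyte markers, 6 of 6 tested, were 8.92 ± 0.08 in KO muscle and 9.23 ± 0.22 in WT muscle (exact permutation p = 0.0152, adjusted p = 0.0556), with sums of 4093 to 7185 in KO and 5838 to 8143 in WT. Adipocyte markers, 3 of 6 tested, were 7.93 ± 0.21 in KO muscle and 8.23 ± 0.10 in WT muscle (exact permutation p = 0.0108, adjusted p = 0.0556), with sums of 1260 to 2089 in KO and 1481 to 2312 in WT. Called genes in these lists were 2 of 5 regenerating-fibre markers, higher in KO, and 1 marker each of smooth muscle and adipocytes, lower in KO, against 3.12% higher and 3.08% lower over all tested genes. The part of these fibre and cell types in the changes of Ttll7, Ttll1 and the related genes was not tested. Over the 12 libraries, deviations from the group means correlated with those of Ttll7 at 0.829 for the fast-fibre marker Myh4. The Pearson values were -0.233 for Myh1 and -0.185 for Myh2, also fast-fibre markers, and -0.570 for the slow-fibre marker Myh7.

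No marker list had an adjusted p at or under 0.05, the smallest exact permutation value being 0.0556. The lists not given above had larger p-values. Of 9 endothelium markers 1 was called, lower in KO, against 3.08% lower over all tested genes. Adjusted exact permutation p-values were 0.148 for endothelium, 0.369 for satellite cells, 0.448 for fibroblasts, 0.671 for Schwann cells and nerve, and 0.426 each for fast fibres, macrophages and red blood cells. Of the nerve markers, 7 of 10 were tested and Nefl stood at the lowest value in every library. The summed nerve level ran from 509 to 7091 scaled reads in KO libraries and from 1141 to 3841 in WT libraries.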

How the data were processed

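The authors deposited 1 table with 1 log2 value per gene and mouse. The tools named, per the submitters' processing notes, are featureCounts, STAR and fastp, with the build mm10. The sources used here do not give the annotation, settings or normalization. All columns share 1 lowest value of 5.57, the shape of a variance-stabilizing transformation. Its closed form was inverted, and 1 read was set to the smallest step seen in that library. Low values then came within 0.1 of a whole number in 86.6% to 92.1% of cases, so these estimated reads are approximate. They served the filter (at least 10 in at least 6 libraries), levels and alternatives. Their precision covers counting error at most, and it is overstated where reads are duplicates made by PCR, which are not separate molecules.

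The deposited values went into a limma fit (version 3.58.1, under R 4.3.3) that held group alone, with trended and robust variance moderation. Two-sided p-values were Benjamini-Hochberg adjusted over 12218 genes, with a threshold of 0.05. Tested on simulated data of these 12218 genes, the fit recovered 82% of 100 genes changed by 0.5 and 98% of 100 changed by 1, with 13 false calls. Whether these rates hold for the deposited values was not tested. There the SD of Ttll7 was 0.78 in KO and 0.20 in WT libraries. Its deviations from the group means were shared by 284 genes with a Pearson correlation above 0.9. Positions and lengths are from GENCODE release M21. No columns were left unused, and each library is a separate mouse.

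The members and lists were chosen with earlier results of these data known. Named genes were the 10 members, Ank2, Dmd, up to 5 called genes per related list or its smallest p, and the 5 genes most like Ttll7. Promoter windows were found for 8 of the 10 members, not for Ttll1 and Ttll11. The alternatives covered filters, moderation, limma-voom, pseudocounts of 1 and 0.1, scaling, transcript length, a replicate block and each library left out.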

Additional observations from a re-analysis of the deposited data

Results flagged for a closer look

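A library was marked where its gap to the nearest other library exceeded 0.625 of the range of its 6 libraries. Of 68 groups of 6 values examined, 3 were marked, and chance marks about 1 group in 20. Ttll5 was 7.44 in KO 4, above the other KO libraries at 7.06 to 7.20. Kif5c was 6.13 in WT 3, below the other WT libraries at 6.41 to 6.58. The mean of the regenerating-fibre markers was 7.18 in KO 2, below the other KO libraries at 7.93 to 8.13 and within the WT range of 7.12 to 7.42.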

How the results depend on the processing

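The number of called genes was 757 and stayed within 1.5 times under the 9 settings that keep all libraries (598 to 817). It ran from 194 to 1514 with a library left out. It was 272, 225 and 194 without KO 1, KO 3 and KO 6, 1514 without KO 2, and for WT 1, WT 2, WT 3, WT 5 and WT 6 left out it was 367, 207, 205, 317 and 366. Of the 10 enzymes, 2 were called, but 1 with no filter on low values and 1 with the replicate block, where Ttll7 missed the threshold, and 1 to 2 with a library left out. The other tubulin-modifying enzymes gave 1 to 2 calls with a library left out. The tubulin genes gave 1 call with limma-voom and 0 to 2 with a library left out. The microtubule-associated genes gave 0 with at least 50 estimated reads, where Kif5c was not tested, 3 with the length trend removed, and 1 to 5 with a library left out. Among 23 named genes and 480 values under 21 settings, 1 reversed: Svbp ran from -0.076 to 0.022 with a library left out, and was above 0 without WT 4. By longest transcript Ttll7 came 1 in place of 2 in level. Of the 5 genes most like Ttll7, 1 was among the first 5 by Spearman correlation and 2 to 5 with a library left out. Marker lists with an unadjusted exact permutation p at or under 0.05 numbered 4, and 3 to 5 with a library left out, a check added after seeing the data. The labels do not say whether replicate numbers pair the mice. Same-numbered libraries correlated from -0.361 to 0.291, and 2 of 6 KO libraries correlated best with their own number. These correlations cannot show whether the mice were paired by litter or cage. With the replicate block 813 genes were called. For the other differences the cause was not tested. Low depth limits the precision of Vash2, Ttll11, Ttll1 and Kif5c, whose lowest libraries had 16.9, 29.0, 27.0 and 6.00 estimated reads.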
